A study of Mus musculus with 20 samples.

Results

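The genes described here encode receptors and bridging molecules for phosphatidylserine, the membrane lipid that dying cells turn outward and by which phagocytes recognise them. They are the 10 genes Axl, Mertk, Tyro3, Timd4, Havcr1, Havcr2, Gas6, Pros1, Mfge8 and Stab1. They were chosen by name for their role in apoptotic cell recognition and found by Ensembl identifier, and all 10 were present in each of 3 count tables that together held 56221 genes.

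RNA had been sequenced from type 1 conventional dendritic cells (cDC1s) of mice, the dendritic cells that take up dead cells and present their antigens to CD8 T cells. The 20 libraries formed 8 groups. XCR1+CD8a+ cDC1s came from WT C57BL/6 mice, either untreated or at Day15 of TLI/ATS, which is total lymphoid irradiation with anti-thymocyte serum, a regimen that promotes transplant tolerance (n = 2 each). XCR1+CD8a+ cDC1s of EpoR-tdTomato mice, in which a red fluorescent protein reports the erythropoietin receptor, were split into EpoR+ and EpoR- cells, all at Day15 of TLI/ATS (n = 2 each). The remaining 12 libraries were CCR7+XCR1+SIRPa- cDC1s of the spleen and migratory cDC1s of the peripheral lymph nodes, from Eporflox/flox control mice and from Epor-Xcr1-Cre conditional knockout (cKO) mice, in which the Cre driven by Xcr1 acts in cDC1s (n = 3 each). No TLI/ATS is named for those mice, no tissue for the first 8 libraries, and no age for any. Nothing in the labels says that replicates were separate mice, so p-values measure the spread between these libraries, which may be technical. The controls carry the floxed allele and no Cre is named for them, so an effect of the Cre itself cannot be told apart from loss of Epor.

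Library depth ran from 26.6 to 77.6 M counts. Values are counts scaled to the total of each library (CPM), and a floor of 3 counts stood between 0.0387 and 0.113 CPM per library. Epor itself checked the labels: its mean was 2.46 CPM after TLI/ATS with 0 counts in untreated libraries, 15.7 ± 2.31 against 0.213 ± 0.161 CPM (SD, n = 2) in EpoR+ and EpoR- cells, and 56 summed counts in lymph node controls with 0 in lymph node cKO libraries. In spleen it had 7 summed counts in controls and 2 in cKO, too few to check the deletion there. Markers of cDC1s were present in all groups, and 13 of 13 had counts. EpoR+ libraries also held high counts of macrophage markers. The 18 markers, such as C1qa, Csf1r, Vcam1 and Adgre1, summed to 26300 to 26400 CPM in them and to 609 to 720 CPM in EpoR- libraries. Sirpa stood at 1800 against 28.9 CPM. The sort genes Xcr1 and Cd8a had means of 454 and 305 CPM in EpoR+ and of 1100 and 645 CPM in EpoR- libraries. In EpoR- libraries, pancreatic enzyme genes summed to between 162 and 2280 CPM, so these 2 libraries also differed from each other. The TLI/ATS pair differed more (chi-square per degree of freedom 206) than the untreated pair (11.8).

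By background, apoptotic cells are bound in several ways. TYRO3, AXL and MERTK form the TAM family of receptor tyrosine kinases. They reach phosphatidylserine through the soluble bridging proteins GAS6 and protein S (Pros1), whose lipid-binding domain needs vitamin K. The TIM family members encoded by Timd4, Havcr1 and Havcr2 bind the lipid directly, as does the scavenger receptor stabilin (Stab1), while lactadherin (Mfge8) joins it to alpha-v integrins. In lymphoid organs, Mertk, Axl and Timd4 are best known from macrophages that clear dying lymphocytes, whereas Havcr2 is a known surface protein of cDC1s.

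In GRCm38, Axl (ENSMUSG00000002602) lies on chromosome 7 from 25757273 to 25788705 and Mfge8 (ENSMUSG00000030605) on the same chromosome from 79133768 to 79149060, both on the minus strand. Mertk (ENSMUSG00000014361) spans 128698956 to 128802894 and Tyro3 (ENSMUSG00000027298) 119797733 to 119818104 on the plus strand of chromosome 2. The TIM genes neighbour each other on the plus strand of chromosome 11, with Havcr2 (ENSMUSG00000020399) at 46454935 to 46481255, Havcr1 (ENSMUSG00000040405) at 46735080 to 46779578 and Timd4 (ENSMUSG00000055546) at 46810800 to 46844332. Pros1 (ENSMUSG00000022912) lies on chromosome 16 at 62854307 to 62929346, plus strand. Gas6 (ENSMUSG00000031451; chromosome 8, 13465374 to 13494490) and Stab1 (ENSMUSG00000042286; chromosome 14, 31139013 to 31168641) lie on the minus strand. Gas6 shared 1.33% of its exon bases with Tmem255b on the opposite strand and Stab1 1.09% with Nt5dc2, and the counting did not use strand in the tables whose headers state it. The other 8 genes shared none.

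The promoters of 5 of these genes are shown because they carry the contrasts that follow. Axl, Mertk and Pros1 were higher together in EpoR+ cells, Havcr2 was lower in the same cells, and Mfge8 differed between lymph node and spleen. Each is the 250 bases before the RefSeq start (GRCm38.p6), 5′ to 3′ on the gene's strand, with motif matches in capitals. The windows are chr7:25788734-25788983 (minus) for Axl, chr2:128698665-128698914 (plus) for Mertk, chr16:62854057-62854306 (plus) for Pros1, chr11:46454681-46454930 (plus) for Havcr2 and chr7:79149061-79149310 (minus) for Mfge8.
Axl: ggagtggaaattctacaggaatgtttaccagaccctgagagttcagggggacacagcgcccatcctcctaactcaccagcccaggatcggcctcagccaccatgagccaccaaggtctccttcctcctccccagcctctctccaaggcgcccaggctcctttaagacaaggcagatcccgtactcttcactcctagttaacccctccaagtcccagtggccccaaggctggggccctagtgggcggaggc
Mertk: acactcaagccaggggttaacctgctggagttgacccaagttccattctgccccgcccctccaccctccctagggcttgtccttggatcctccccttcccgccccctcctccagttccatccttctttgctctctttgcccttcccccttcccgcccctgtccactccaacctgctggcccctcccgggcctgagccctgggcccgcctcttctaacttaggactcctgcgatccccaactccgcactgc
Pros1: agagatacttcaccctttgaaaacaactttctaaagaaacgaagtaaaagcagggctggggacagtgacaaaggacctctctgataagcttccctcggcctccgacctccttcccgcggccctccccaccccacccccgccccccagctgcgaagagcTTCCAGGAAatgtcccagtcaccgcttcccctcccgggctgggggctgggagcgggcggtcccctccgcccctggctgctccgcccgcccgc
Havcr2: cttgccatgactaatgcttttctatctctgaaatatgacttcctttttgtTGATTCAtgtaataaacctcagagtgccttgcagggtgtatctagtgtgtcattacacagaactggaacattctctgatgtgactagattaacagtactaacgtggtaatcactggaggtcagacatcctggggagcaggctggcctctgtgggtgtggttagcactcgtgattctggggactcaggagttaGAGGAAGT
Mfge8: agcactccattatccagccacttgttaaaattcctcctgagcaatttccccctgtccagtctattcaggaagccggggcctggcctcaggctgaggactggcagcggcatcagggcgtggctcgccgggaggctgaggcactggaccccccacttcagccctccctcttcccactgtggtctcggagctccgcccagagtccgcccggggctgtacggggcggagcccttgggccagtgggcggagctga

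Both strands of the windows of all 10 genes, which all matched in RefSeq, were searched for 5 motifs. These were the STAT-type GAS element TTCNNNGAA, the interferon-stimulated response element, the AP-1 site TGANTCA, the LXR direct repeat and the PU.1 and SPI-C core GAGGAAGT. Over all 32851 windows of this length, they were held by 7.02%, 2.98%, 6.75%, 0.0152% and 2.44%. Pros1 held 1 GAS match, TTCCAGGAA, 92 bases before the start. Havcr2 held an AP-1 match, TGATTCA, at 200 bases and a PU.1 core at 8 bases before the start, and no matches overlapped. The windows of the other 8 genes held none of these letters. GC content was 60.0% for Axl, 63.6% for Mertk, 64.4% for Pros1 and 65.2% for Mfge8, against 44.8% for Havcr2 and a median of 52.4% over all windows.

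EpoR+ and EpoR- cells gave the widest contrast, a comparison made to define what sets EpoR+ cDC1s apart after TLI/ATS. Of the 10 genes, 9 passed the filter on low counts, 6 were higher and 1 was lower in EpoR+ cells. Over all 15627 genes tested, 16.7% passed in either direction, 11.9% higher and 4.75% lower. The TAM receptors Axl and Mertk, the direct receptors Timd4 and Stab1 and the bridging genes Gas6 and Pros1 rose, Havcr2 fell, and Mfge8 and Havcr1 did not pass. The median log2 fold change of the 9 tested genes was 4.36, against 0.0164 over all genes. The groups did not overlap for 8 of the 9, all but Mfge8, and for 58.1% of all genes.

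Axl, a TAM receptor that binds GAS6, stood at 2560 and 2210 CPM in EpoR+ libraries and at 25 and 26.6 CPM in EpoR- libraries. Each EpoR+ library was far above each EpoR- library (log2 fold change 6.52 ± 0.14 SE, Benjamini-Hochberg adjusted p = 2.62e-05 by edgeR's quasi-likelihood test). Mertk, the TAM receptor that drives engulfment in macrophages, stood at 493 and 501 CPM against 5.73 and 3.03 CPM. The EpoR+ pair was nearly equal and the 2 EpoR- libraries were both low (6.80 ± 0.39, edgeR adjusted p = 0.00104). Tyro3, the TAM receptor best known from neurons, had 2 and 0 counts in EpoR+ and 0 and 8 counts in EpoR- libraries, and the filter removed it.

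Timd4, a tethering receptor of resident macrophages, stood at 88.9 and 87.9 CPM in EpoR+ libraries and at 3.29 and 4.28 CPM in EpoR- libraries (4.53 ± 0.18, edgeR adjusted p = 0.00011). Stab1, a scavenger receptor of macrophages and sinusoidal endothelium, stood at 57.2 and 84.1 CPM against 2.02 and 2.38 CPM (4.99 ± 0.26, edgeR adjusted p = 0.00027). For both genes the groups were well separated, and for Stab1 this was the only set of libraries with more than 15 counts in any library. The other TIM genes did not follow Timd4. Havcr2, a receptor on cDC1s and an inhibitory receptor of T cells, was lower in EpoR+ libraries at 250 and 247 CPM, against 523 and 588 CPM (-1.18 ± 0.10, edgeR adjusted p = 0.00166). Havcr1, a TIM receptor known from kidney epithelium and B cells, stood at 0.723 and 0.343 CPM against 0.773 and 0.832 CPM (-0.60 ± 0.72, edgeR adjusted p = 0.656), which is no difference beyond the error at this level.

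Among the bridging genes, Gas6 stood at 49.8 and 63.2 CPM in EpoR+ and at 3.84 and 1.54 CPM in EpoR- libraries (4.36 ± 0.50, edgeR adjusted p = 0.00785). Its call was lost without the filter on low counts (edgeR adjusted p = 0.0532) at the same fold change. Pros1, which encodes protein S, stood at 18.7 and 23.9 CPM against 3.14 and 2.14 CPM (2.99 ± 0.29, edgeR adjusted p = 0.00215). Mfge8 stood at 8.06 and 6.06 CPM against 7.43 and 6.33 CPM, and the groups overlapped (0.02 ± 0.27, edgeR adjusted p = 0.975). The rise in Gas6 and Pros1 was thus measured beside overlapping values of the third bridging gene.

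**Figure D1:**
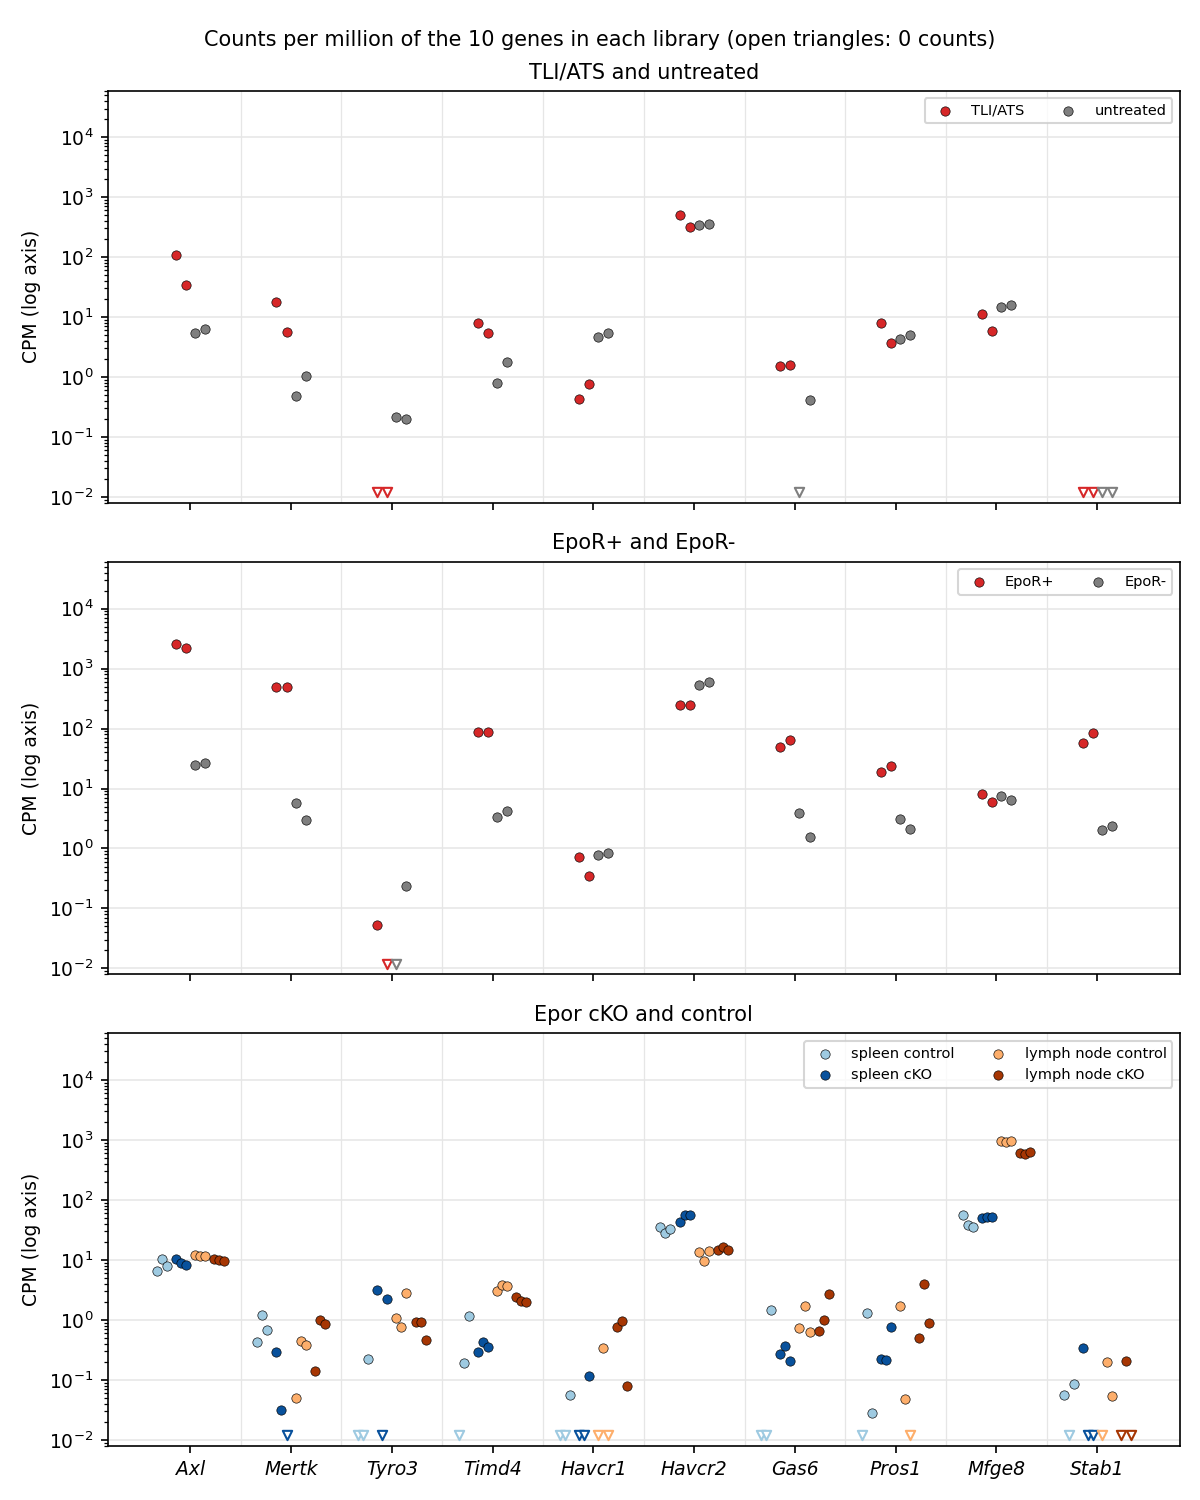
CPM (log axis) of the 10 genes in each library of the 3 tables, 1 point per library and colours for groups, with open triangles at the foot for 0 counts. Axl, Mertk, Timd4, Gas6, Pros1 and Stab1 stand higher in EpoR+ libraries, Mfge8 stands at 575 to 963 CPM in lymph node libraries, and Stab1 is at 0 in all 4 libraries of the first table.

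Per kilobase of exon, which allows genes to be compared, the order of mean levels in EpoR+ libraries was Axl (474 CPM per kb), Mertk (115), Havcr2 (91.4), Timd4 (40.7), Gas6 (22.2), Stab1 (6.87), Pros1 (5.21) and Mfge8 (1.5), with Havcr1 and Tyro3 last. Stab1 and Pros1 lay within their spread (SD 1.85 and 0.903), as the only neighbours above Mfge8 to do so. In EpoR- libraries Havcr2 led at 204 CPM per kb, followed by Axl at 5.12, Timd4 at 1.74 and Mfge8 at 1.47. Havcr2 was therefore the most abundant of the 10 in EpoR- cells, while Axl and Mertk stood above it in EpoR+ cells.

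The macrophage markers moved with these genes. All 18 rose in EpoR+ cells, and none was at 0 in either group. C1qa, a complement chain, stood at 1550 ± 51.2 against 15.5 ± 0.444 CPM (SD, n = 2). The 13 cDC1 markers summed to 8420 to 9930 CPM in EpoR+ and 17600 to 19100 CPM in EpoR- libraries, and Xcr1 fell by 1.29 on the log2 scale. Per 1000 CPM of macrophage markers, Axl stood at 97.0 and 84.0 CPM in EpoR+ and at 41.1 and 36.9 CPM in EpoR- libraries, and Mertk at 18.7 and 19.0 against 9.41 and 4.21 CPM. Timd4 stood at 3.37 and 3.34 against 5.40 and 5.94 CPM on the same scale, and Stab1 at 2.17 and 3.20 against 3.32 and 3.31 CPM. Pros1 stood lower in EpoR+ libraries on this scale, at 0.708 and 0.909 against 5.16 and 2.97 CPM. Gas6 overlapped, at 1.89 and 2.40 against 6.31 and 2.14 CPM. Markers of other cells were higher as well. The 8 cDC2 markers summed to 1860 to 1910 CPM in EpoR+ and 38.3 to 49.6 CPM in EpoR- libraries (5 of 8 rose). Sirpa, named above, made up most of these sums, at 1750 to 1850 CPM in EpoR+ and 24.6 to 33.1 CPM in EpoR- libraries. The 7 erythroid markers summed to 1630 to 2010 against 155 to 249 CPM (7 of 7 rose). Beside Stab1, the 6 endothelial markers summed to 519 to 528 against 102 to 106 CPM (3 of 5 tested rose). No marker of these lists was at 0 in either group. The part of RNA from such cells in these differences was not tested. In bulk libraries, a larger share of cells that carry a transcript and more RNA per cell cannot be told apart.

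**Figure D2:**
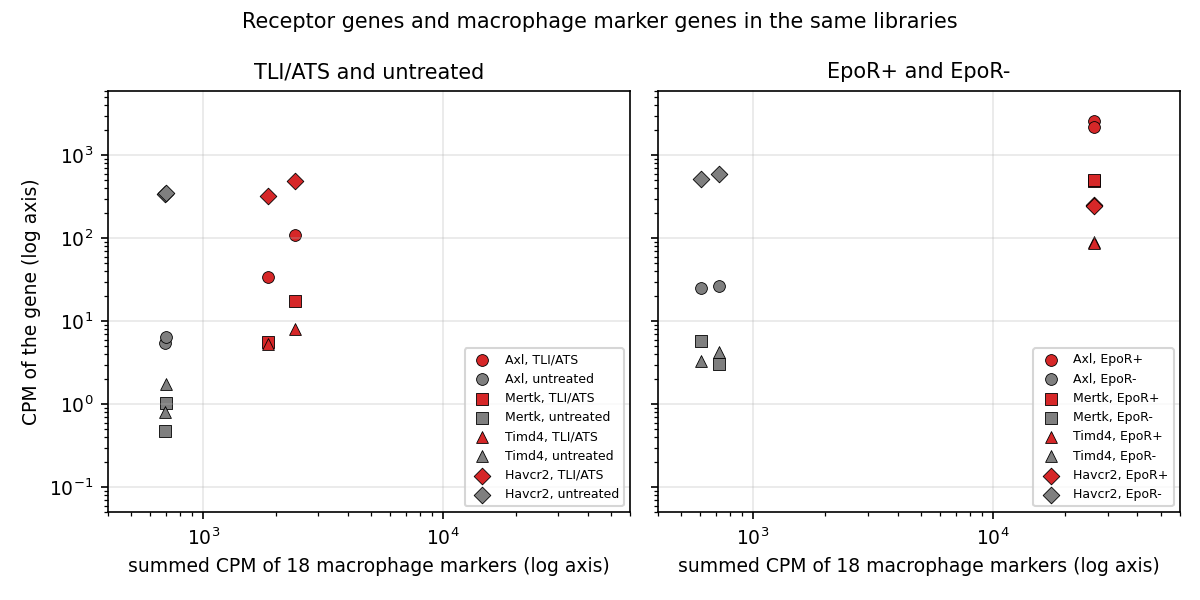
CPM of Axl, Mertk, Timd4 and Havcr2 against the summed CPM of 18 macrophage markers (both axes log), 1 point per gene and library. In EpoR+ libraries the markers sum to 26300 to 26400 CPM and Axl, Mertk and Timd4 are high with them, while Havcr2 is lower than in EpoR- libraries.

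Of 68 other genes of apoptotic cell uptake, 58 were tested in EpoR+ against EpoR- cells, and 21 rose and 3 fell, with a median of 0.43. Over all genes tested, 11.9% rose and 4.75% fell. Among the largest rises were those of Abca1, a cholesterol exporter (6.06 ± 0.24), Nr1h3, which encodes LXR-alpha, a nuclear receptor known to induce Mertk (6.06 ± 0.45), and Itgb5, an integrin chain that binds lactadherin (5.98 ± 0.17). Itgb5 stood at 397 ± 0.264 CPM against 6.22 ± 1.03 CPM (SD, n = 2), although its ligand gene Mfge8 did not pass. The falls were those of Anxa1, a phosphatidylserine-binding annexin (-1.06 ± 0.12), Cd36, a scavenger receptor (-0.88 ± 0.16), and Trio, a guanine exchange factor (-0.84 ± 0.10). By list, 7 of 10 tested other receptors rose and 1 fell. Of the 10 genes of TAM shedding and transcriptional control, 6 rose. Among engulfment machinery 4 of 17 rose and 1 fell. Of the 3 vitamin K cycle genes none passed, with 2 at an unadjusted p under 0.05 by edgeR, a level reached by 4677 of all 15627 genes.

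TLI/ATS against untreated asked how the treatment changes cDC1s. Axl rose and Havcr1 fell, the 2 of 9 tested genes past the threshold, where 2.7% of 17236 genes passed (0.499% higher and 2.2% lower). Mertk and Timd4 also stood higher in both treated libraries without passing by edgeR, and Havcr2 differed by less than its spread. The 9 tested genes had a median log2 fold change of 0.433, against 0.0243 over all genes. The groups did not overlap for 7 of them and for 46% of all genes.

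Axl stood at 108 and 34.3 CPM after TLI/ATS and at 5.45 and 6.43 CPM in untreated libraries. The treated libraries lay far apart, and both were above both untreated ones (3.67 ± 0.56, edgeR adjusted p = 0.0473). Mertk showed the same order, with 17.6 and 5.57 CPM against 0.476 and 1.03 CPM (4.03 ± 0.70, edgeR adjusted p = 0.0634). Tyro3 had 0 counts in both treated libraries and 10 and 8 counts in untreated ones, at least 10-fold lower after TLI/ATS with the floor of 3 counts taken over both treated libraries (edgeR adjusted p = 0.134). Within the TAM family, Axl passed by edgeR, and Axl and Mertk passed with DESeq2 (adjusted p = 4.78e-14 and 1.53e-09).

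Timd4 stood at 8.11 and 5.39 CPM after treatment and at 0.801 and 1.75 CPM without it (2.52 ± 0.47, edgeR adjusted p = 0.0737), and it passed with DESeq2 (adjusted p = 2.6e-05). Havcr1 went the other way, with 0.425 and 0.757 CPM against 4.72 and 5.42 CPM (-2.96 ± 0.43, edgeR adjusted p = 0.0428). Havcr2 stood at 494 and 320 CPM against 343 and 350 CPM, and the untreated values lay inside the treated range (0.34 ± 0.21, edgeR adjusted p = 0.549). Neighbouring genes of the TIM cluster thus differed in direction. Stab1 had 0 counts in all 4 libraries, which allows up to 0.0739 CPM in the shallowest.

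Of the bridging genes, Gas6 stood at 1.55 and 1.59 CPM after TLI/ATS against 0 and 0.419 CPM (3.05 ± 1.29, edgeR adjusted p = 0.358). Pros1 stood at 7.93 and 3.71 CPM against 4.26 and 4.98 CPM, with overlap (0.43 ± 0.39, edgeR adjusted p = 0.693). Mfge8 was the only bridging gene lower in both treated libraries, at 11.4 and 5.95 CPM against 15 and 16.2 CPM, and did not pass (-0.74 ± 0.32, edgeR adjusted p = 0.369). Per kilobase, Havcr2 led in both groups, at 150 ± 45.3 CPM per kb after TLI/ATS and 127 ± 1.90 untreated. Axl followed after treatment at 14.1 ± 10.3 CPM per kb, whereas in untreated libraries Mfge8 at 3.32 ± 0.176 and Havcr1 at 2.19 ± 0.215 stood above Axl at 1.18 ± 0.137.

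Without the filter on low counts neither call passed (edgeR adjusted p = 0.055 for Axl and 0.056 for Havcr1). Leaving out a library left 1 in its group, so the other pair alone gave the spread and calls of these genes are not read from such fits. Their log2 fold changes ran from 2.73 to 4.23 for Axl, 3.09 to 4.69 for Mertk, 2.05 to 3.19 for Timd4 and -3.52 to -2.54 for Havcr1. They ran from 0.09 to 0.56 for Havcr2, -0.11 to 0.83 for Pros1, -1.19 to -0.40 for Mfge8 and 2.02 to 9.68 (the latter with no bound) for Gas6.

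Macrophage markers summed to 1860 to 2400 CPM after TLI/ATS and to 692 to 697 CPM untreated, with 11 of 17 tested markers higher and none of 18 at 0. Per 1000 CPM of these markers, Axl stood at 45.0 and 18.4 CPM treated against 7.88 and 9.23 CPM untreated. Beside Havcr1, B cell markers summed to 39.6 to 48.9 CPM treated and 586 to 602 CPM untreated, 8 of 8 lower and none at 0, and T cell markers to 14.9 to 25.1 against 605 to 614 CPM. The part of such cells in the changes of Axl and Havcr1 was not tested. EpoR+ and TLI/ATS libraries were counted in separate tables and their levels are not compared.

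**Figure D3:**
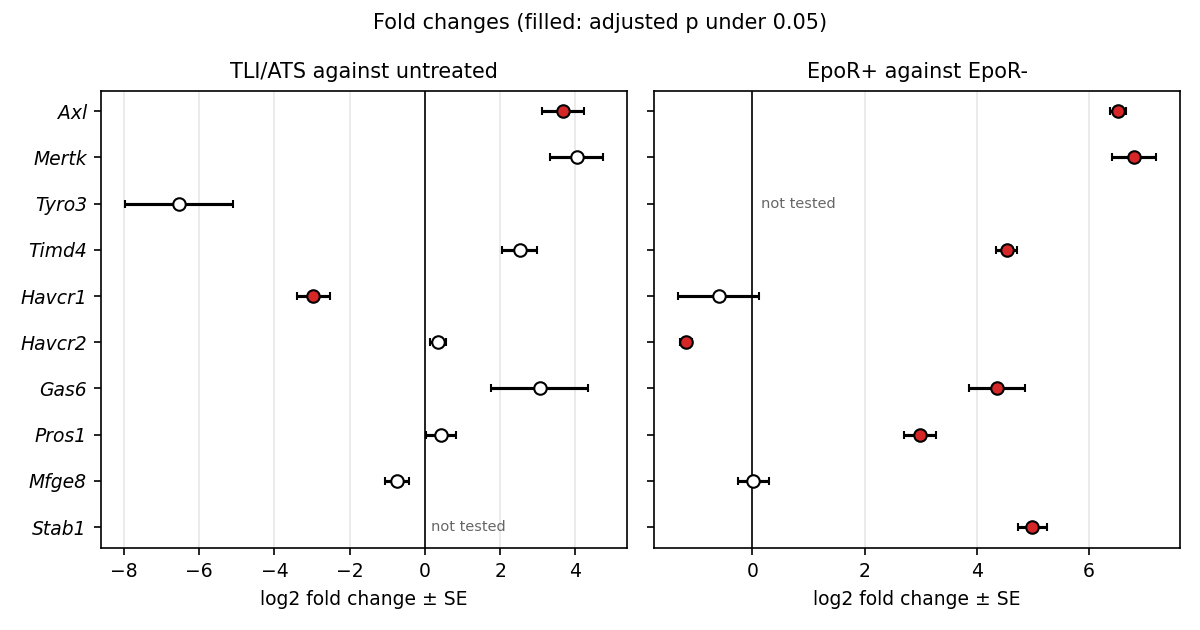
Log2 fold change of each gene with its SE for TLI/ATS against untreated (left) and EpoR+ against EpoR- (right), filled where the adjusted p is under 0.05. In the left panel Axl (3.67) and Havcr1 (-2.96) are filled, and in the right panel 6 genes are filled above 0 and Havcr2 (-1.18) below.

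Of the 68 other uptake genes, 56 were tested after TLI/ATS, and 3 rose and 1 fell (median 0.23). Over all genes tested, 0.499% rose and 2.2% fell. Nr1h3 (2.58 ± 0.31) and Anxa1 (1.13 ± 0.16) were among those that rose, while the integrin chain gene Itgb3, whose product pairs with alpha-v to bind lactadherin, fell (-3.37 ± 0.45). Itgb3 stood at 0.532 ± 0.269 CPM after TLI/ATS and at 5.93 ± 1.51 CPM untreated (SD, n = 2).

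Lymph node and spleen cDC1s were compared within each genotype of the third set. The labels give CCR7+XCR1+SIRPa- for both tissues and call the lymph node cells migratory, so tissue and cell state cannot be told apart. Mfge8 was 17.9-fold higher and Havcr2 3.15-fold lower in lymph node than in spleen controls, and both differed in the same direction in cKO mice. Of 9 tested genes in controls, 3 were higher and 1 lower in lymph node, where 41.3% of 17362 genes passed (21% higher, 20.3% lower). In cKO mice 1 was higher and 1 lower, with 29.4% of genes passing (14.1% and 15.3%). Groups did not overlap for 5 of 9 in controls and 4 of 9 in cKO, against 51.1% and 53.1% of all genes, so these counts lie near the background. The median of the 9 was 0.693 in controls and 2.12 in cKO, and that of all genes -0.00998 and 0.00291. Fold changes use TMM scaling, whose mean log2 factor was 0.14 and 0.13 in lymph node control and cKO and -0.15 and -0.12 in spleen control and cKO libraries, so ratios of CPM between tissues run higher than these fold changes.

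Mfge8 stood at 956, 925 and 963 CPM in lymph node controls and at 56.6, 38.4 and 35.3 CPM in spleen controls. The lymph node values were tight and all far above spleen (4.16 ± 0.13, edgeR adjusted p = 7.97e-12). In cKO libraries it stood at 606, 575 and 629 CPM in lymph node and at 50.9, 52.8 and 53.0 CPM in spleen (3.29 ± 0.13, edgeR adjusted p = 8.97e-11). Within each tissue the 3 libraries of a genotype lay close together against this distance.

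Havcr2 stood at 13.4, 9.50 and 14.3 CPM in lymph node controls and at 34.9, 28.2 and 32.2 CPM in spleen controls (-1.65 ± 0.17, edgeR adjusted p = 1.74e-06). In cKO mice the values were 14.6, 16.7 and 14.9 CPM in lymph node and 43.6, 55.2 and 56.7 CPM in spleen (-2.0 ± 0.17, edgeR adjusted p = 4.08e-07). All 6 spleen libraries lay above all 6 lymph node libraries. Timd4 stood at 3.04, 3.83 and 3.70 CPM in lymph node controls and at 0, 0.188 and 1.16 CPM in spleen controls (2.59 ± 0.91, edgeR adjusted p = 0.0319). In cKO mice it stood at 2.44, 2.05 and 1.97 CPM in lymph node and at 0.292, 0.435 and 0.349 CPM in spleen, without overlap and without passing (2.34 ± 0.91, edgeR adjusted p = 0.0648). Tyro3 had 44, 31 and 102 counts in lymph node controls and 0, 0 and 8 in spleen controls (3.88 ± 1.43, edgeR adjusted p = 0.0406), but 40, 36 and 23 against 143, 0 and 76 in cKO libraries (-1.48 ± 1.21, edgeR adjusted p = 0.399).

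The calls of Timd4 and Tyro3 lay near the threshold and depended on which libraries were in the fit. In controls, Timd4 did not pass without spleen control replicate 2 (edgeR adjusted p = 0.0877) or lymph node control replicate 1, 2 or 3 (0.0562, 0.0713 and 0.0629), with fold changes from 2.02 to 5.10. Tyro3 did not pass without spleen control replicate 1 or 2 (0.0912 and 0.101) or lymph node control replicate 1 or 3 (0.0569 and 0.121), and its fold changes ran from 3.17 to 8.78. Both missed the threshold in a fit of the 6 control libraries alone (edgeR adjusted p = 0.0931 and 0.0507). Timd4 in cKO mice passed in the fit of the 6 cKO libraries alone (0.00351), as did Gas6 (0.0366).

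Axl was low and even across these groups, at 12.1, 11.7 and 11.6 CPM in lymph node controls and at 6.42, 10.4 and 8.01 CPM in spleen controls. The groups did not overlap in CPM, and the scaled difference did not pass (0.22 ± 0.22, edgeR adjusted p = 0.447). Mertk, Gas6, Pros1 and Havcr1 stood at 4.04 CPM or less in each of the 12 libraries, with many single libraries at 0, and none passed between tissues. Gas6 passed in controls only without spleen control replicate 3 (8.21, no bound, edgeR adjusted p = 0.00156), and Mertk in cKO without spleen cKO replicate 1 (4.97, edgeR adjusted p = 0.0442). Stab1 had 0 to 15 counts per library and was removed by the filter.

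**Figure D4:**
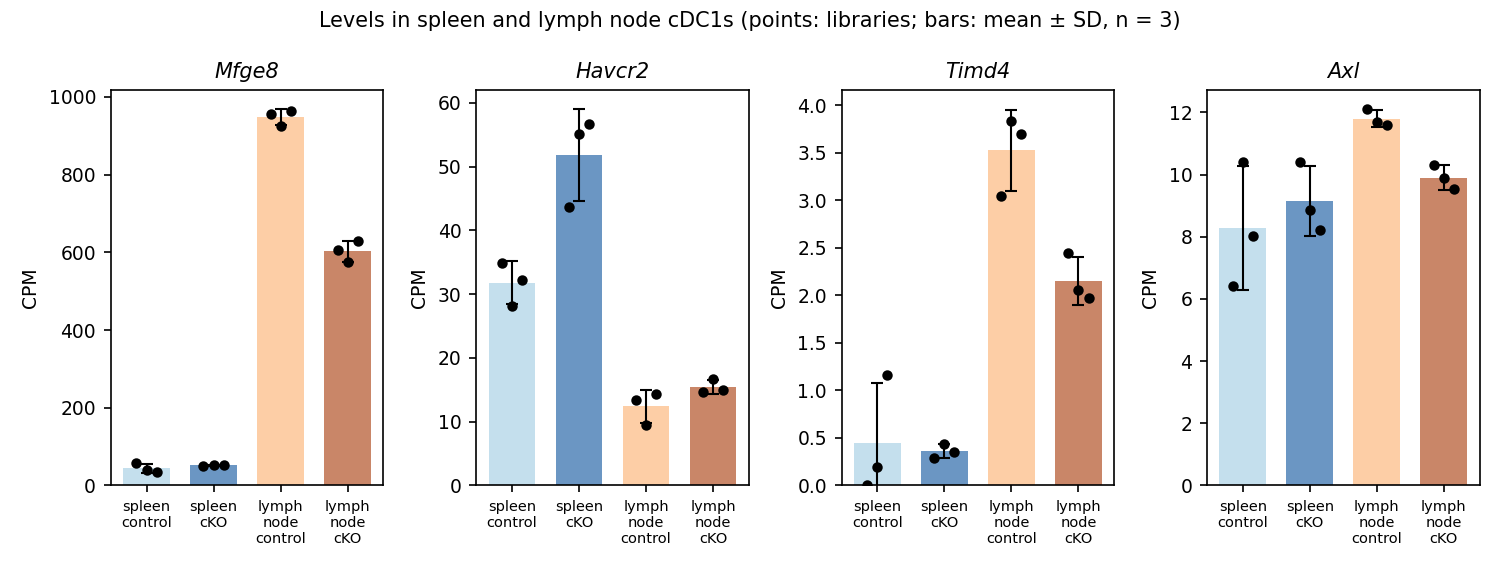
CPM of Mfge8, Havcr2, Timd4 and Axl in spleen and lymph node cDC1s of control and cKO mice, with points for libraries and bars for mean ± SD (n = 3). Lymph node bars are highest for Mfge8 (925 to 963 CPM in controls, 575 to 629 CPM in cKO), and spleen bars are highest for Havcr2.

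Other cells were followed by their markers. T cell markers, 11 of 11 with counts, summed to 310 to 319 CPM in lymph node and 55.9 to 63.4 CPM in spleen controls. Macrophage markers summed to 240 to 256 and 311 to 343 CPM, with Cd163 at 0 in spleen controls. Of 14 tested macrophage markers 3 were higher and 5 lower in lymph node controls, with a median log2 fold change of 1.72. Stromal and follicular dendritic cells are a known source of lactadherin. Their 7 markers, none at 0 over a group, summed to 7.70 to 12.9 CPM in lymph node and 2.74 to 8.78 CPM in spleen controls, where Mfge8 itself stood at 925 to 963 and 35.3 to 56.6 CPM. Of the cDC1 markers 9 of 13 were lower in lymph node, among them Xcr1 (-1.76 ± 0.15, edgeR adjusted p = 2.54e-07). The part of other cells in the tissue differences was not tested.

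Among other uptake genes, 56 were tested, and 15 were higher and 11 lower in lymph node controls (median -0.07), 13 and 11 in cKO (median -0.05). Over all genes tested, 21% were higher and 20.3% lower in controls, and 14.1% and 15.3% in cKO. The largest rises in controls were those of Abca1 (3.33 ± 1.00), the engulfment machinery gene Dock1 (3.28 ± 0.53), Itgb5 (2.23 ± 0.37) and the scavenger receptor gene Scarf1 (1.93 ± 0.25). The galectin gene Lgals3 (-2.22 ± 0.07), the Rac activator Vav3 (-2.20 ± 0.22), the inhibitory phosphatidylserine receptor Cd300a (-2.20 ± 0.42) and Cd36 (-2.17 ± 0.18) fell. In cKO mice Dock1 (2.99), Scarf1 (1.76), Itgb5 (1.44) and the scramblase gene Plscr1 (1.29) led the rises, and Cd300a (-2.64), Cd36 (-2.16), Lgals3 (-1.76) and Vav3 (-1.50) the falls. Itgb5 stood at 33.5 ± 16.4 CPM in lymph node and 5.75 ± 2.21 CPM in spleen controls (SD, n = 3), so this integrin chain and its ligand gene Mfge8 were both higher in lymph node.

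**Figure D5:**
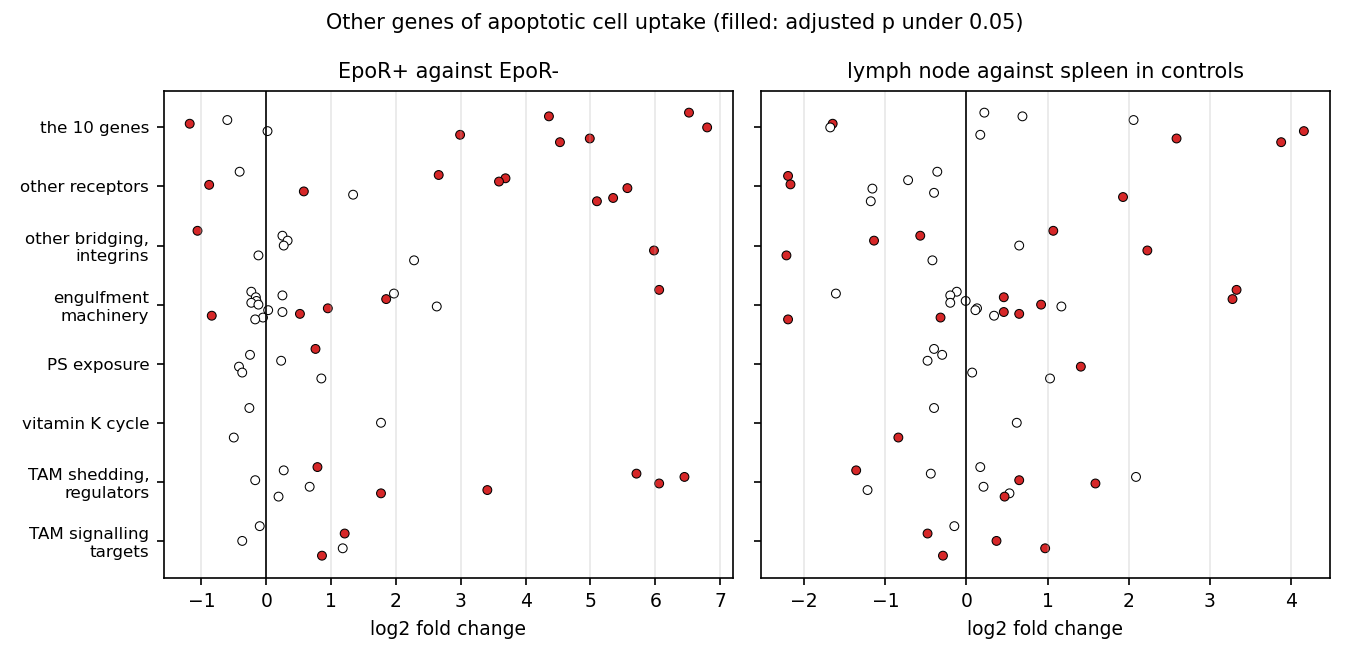
Log2 fold changes of the 10 genes and of 7 lists of other uptake genes in EpoR+ against EpoR- cells (left) and in lymph node against spleen controls (right), 1 point per tested gene, filled where the adjusted p is under 0.05. On the left 21 of the 58 other genes are filled above 0 and 3 below, and on the right 15 and 11 of 56.

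Loss of Epor was compared with control within each tissue. In lymph node, Mfge8 was lower in cKO libraries, at 606, 575 and 629 CPM against 956, 925 and 963 CPM. No cKO library reached the lowest control, and the fold change was -0.64 ± 0.12 (edgeR adjusted p = 0.0187). It was the only 1 of 9 tested genes to pass, where 0.455% of genes passed (0.167% lower). Its fall kept its size when any library was left out, from -0.69 to -0.58, but passed only without lymph node cKO replicate 3 (edgeR adjusted p = 0.0427). It did not pass without lymph node control replicate 1, 2 or 3 (0.0874, 0.0601 and 0.0578) or lymph node cKO replicate 1 or 2 (0.0919 and 0.105).

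Timd4 and Axl also stood lower in every lymph node cKO library without passing. Timd4 stood at 2.44, 2.05 and 1.97 CPM against 3.04, 3.83 and 3.70 CPM (-0.70 ± 0.84, edgeR adjusted p = 0.964), and Axl at 10.3, 9.89 and 9.52 CPM against 12.1, 11.7 and 11.6 CPM (-0.24 ± 0.22, edgeR adjusted p = 0.923). Havcr2 stood slightly higher in every cKO library (0.32 ± 0.17, edgeR adjusted p = 0.725). With Mfge8, 4 of 9 genes thus did not overlap, against 15.9% of all genes, and the median of the 9 was 0.324 against 0 over all genes. Mertk had 6, 39 and 42 counts in cKO against 2, 18 and 14 in control libraries, with overlap, and did not pass. T cell markers summed to 310 to 319 CPM in lymph node controls and 220 to 252 CPM in cKO, macrophage markers to 240 to 256 and 202 to 222 CPM, and stromal markers to 7.70 to 12.9 and 9.40 to 11.4 CPM. Their part in the change of Mfge8 was not tested.

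In spleen none of the 9 tested genes passed by edgeR, where 0.611% of all genes passed (0.49% higher). By edgeR 3 of the 9 had an unadjusted p under 0.05, as did 2255 of all 17362 genes tested. DESeq2 called 2 of the 9 and 546 of all genes. Havcr2 came closest, at 43.6, 55.2 and 56.7 CPM in cKO against 34.9, 28.2 and 32.2 CPM in control libraries (0.67 ± 0.17, edgeR adjusted p = 0.0911). Every cKO library exceeded every control, and the gene passed with DESeq2 (adjusted p = 0.0129) and without the filter (edgeR adjusted p = 0.0115). Axl stood at 10.4, 8.85 and 8.21 CPM in cKO against 6.42, 10.4 and 8.01 CPM in control libraries (0.11 ± 0.22, edgeR adjusted p = 0.89). Mertk had 13, 1 and 0 counts in cKO against 15, 32 and 24 in control libraries (-2.78 ± 1.28, edgeR adjusted p = 0.376). Tyro3 had 143, 0 and 76 against 0, 0 and 8 counts (4.39 ± 1.45, edgeR adjusted p = 0.209) and passed with DESeq2 (adjusted p = 0.0359) and without the filter (edgeR adjusted p = 0.00268), with libraries of both groups at 0. Mfge8 stood at 50.9, 52.8 and 53.0 CPM in cKO against 56.6, 38.4 and 35.3 CPM (0.23 ± 0.12, edgeR adjusted p = 0.433), and it passed without spleen control replicate 1 (0.46, edgeR adjusted p = 0.0197). The 7 plasma cell markers summed to 2310 to 2590 CPM in spleen cKO and 1020 to 1190 CPM in control libraries (3 of 7 rose). The 4 basophil and mast cell markers summed to 12.5 to 15.7 against 2.61 to 5.05 CPM. Of these, none of 3 tested passed by edgeR, 1 had an unadjusted p under 0.05, and 1 of the 4 was at 0 in controls. Macrophage markers summed to 286 to 310 against 311 to 343 CPM. Of 14 tested macrophage markers 1 was lower and none higher, and their median log2 fold change was 0.343, so sum and median differed in direction. The part of these cells in the differences was not tested. Groups did not overlap for 2 of the 9, against 17.1% of all genes, and the median was 0.112 against 0.

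The effect of the cKO on Mfge8 differed between tissues, with an interaction of -0.87 ± 0.17 (edgeR adjusted p = 0.0375), where 0.317% of genes passed (0.19% lower). It was again the only 1 of 9 genes to pass. When 1 of the 12 libraries was left out the interaction ran from -1.09 to -0.79 and passed without spleen control replicate 1 or 3. Without any of the other 10 libraries it did not pass, with edgeR adjusted p-values from 0.0507 (lymph node cKO replicate 3) to 0.107 (lymph node control replicate 1). Of the other uptake genes, Rac2, a small GTPase of phagocytes, rose in spleen cKO (0.60 ± 0.12, edgeR adjusted p = 0.0314) and passed the interaction (-0.90 ± 0.16), and Lgals3 rose in lymph node cKO (0.38 ± 0.07, edgeR adjusted p = 0.0187). These were the only 2 of 56 to pass in either tissue, where 0.611% of all genes passed in spleen and 0.455% in lymph node.

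Gas6, Pros1 and Havcr1 were low in these 12 libraries and uneven within groups. Gas6 had 0, 0 and 51 counts in spleen controls and 12, 12 and 7 in spleen cKO, 30, 70 and 23 in lymph node controls and 28, 39 and 132 in lymph node cKO. Pros1 had 0, 35 and 1, 10, 7 and 26, 69, 2 and 0, and 21, 156 and 45 counts in the same order of groups. Havcr1 reached 37 counts in lymph node cKO replicate 2 and 4 or fewer in all 6 spleen libraries. None of the 3 passed between genotypes in either tissue or between tissues in the fit of all 12 libraries, although the 3 lymph node cKO libraries lay above the 3 spleen cKO libraries for Gas6, which passed in the fit of those 6 libraries given above. Per kilobase, Mfge8 was the most abundant of the 10 in lymph node, at 202 ± 4.36 CPM per kb in controls and 129 ± 5.81 in cKO, followed by Havcr2 at 4.56 ± 0.940 and 5.66 ± 0.399 and Axl at 2.34 ± 0.0552 and 1.96 ± 0.0732. In spleen Havcr2 stood at 11.7 ± 1.24 CPM per kb in controls and 19.0 ± 2.63 in cKO, and Mfge8 at 9.25 ± 2.45 and 11.1 ± 0.252. In controls these 2 overlapped within their spread, and in cKO Havcr2 was higher.

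Genes with the pattern most like each member were sought over the 12 spleen and lymph node libraries, by the root-mean-square difference of log2 CPM centred on the mean of all libraries, among 12822 candidates. For Mfge8 the nearest were Clu (0.242), which encodes the chaperone clusterin, Ip6k3 (0.283) and Lat (0.321), an adaptor of T cell receptor signalling. Clu stood at 710 ± 75.7 CPM in lymph node controls and 524 ± 24.3 in cKO, and at 36.5 ± 5.16 and 58.8 ± 4.79 CPM in spleen (SD, n = 3). For Havcr2 they were Ly6e (0.193), the acid amidase gene Naaa (0.194), which is a cDC1 marker, and Gng2 (0.199). Naaa stood at 145 ± 17.8 and 222 ± 6.39 CPM in spleen control and cKO and at 56.2 ± 6.42 and 63.3 ± 8.53 CPM in lymph node. For Timd4 they were Kif26b (0.415), Pla2g2d (0.478), a phospholipase of lymphoid dendritic cells, and Pomk (0.560). Distances were wider for the low genes, from 0.524 (Car5b, nearest to Gas6) to 1.12 (Pla2g4d and Mid2, nearest to Tyro3 and Pros1), and Axl was left out because its 4 group means spanned 0.245 log2 units.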

How the data were processed

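Values were raw counts per gene, deposited by the authors without normalization. Per the submitters' processing notes, HISAT2 and featureCounts were used on GRCm38, with StringTie and SAMtools also named for the first 8 libraries. Per the file headers, the EpoR+ and EpoR- table came from featureCounts 2.0.3 and the spleen and lymph node table from featureCounts 2.0.8 with Ensembl release 100, both without strand and with each read of a pair counted, so that a pair can add 2 counts and floors are too low there. Reads carry no molecular identifiers, so floors cover counting error only. Columns named WT were read as the untreated libraries, and those named P and N as EpoR+ and EpoR-.

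Each table was fitted apart in R 4.3.3 with edgeR 4.0.16 (filterByExpr with a minimum count of 10 and minimum total of 15, TMM, robust quasi-likelihood test, limma 3.58.1), the third on all 12 libraries. Benjamini-Hochberg adjustment covered the whole table of tested genes, and an adjusted p under 0.05 is called past the threshold. DESeq2 1.42.0, RLE scaling, no filter, a replicate block, each library left out and fits of the 6 compared libraries were alternatives. The code was tested on simulated data. The 10 members, the 7 lists of other uptake genes, the marker lists and the tests were chosen with earlier results of these data known. Each member is named with its values in EpoR+ against EpoR- and in TLI/ATS against untreated. In the third set, some members that did not pass are not given in each comparison. Of the other uptake genes up to 4 per comparison and direction, those with the largest fold change past the threshold, are named, except where a gene is not reported here, and for likeness the 3 nearest genes. Symbols were found for 99.1%, 99.9% and 99.5% of identifiers in the 3 tables.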

Additional observations from a re-analysis of the deposited data

Results flagged for a closer look

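The cKO effect on Mfge8 differed between lymph node and spleen by a test of the difference itself, the interaction in the fit of all 12 libraries. It was -0.87 ± 0.17 on the log2 scale (SE, Benjamini-Hochberg adjusted p = 0.0375 by edgeR's quasi-likelihood test), with -0.64 in lymph node and 0.23 in spleen. All 3 lymph node cKO libraries stood below all 3 controls, and in spleen the control libraries lay on both sides of the cKO libraries. The interaction kept its sign but passed in only 2 of 12 fits with a library left out (-1.09 to -0.79). It did not pass with the replicate block.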

How the results depend on the processing

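Of 281 results recomputed under other settings than leaving out a library, 254 kept direction and side of the threshold, 14 newly passed, 6 no longer passed and 7 changed sign, and the cause of each change was not tested. Counts of the 10 genes past the threshold moved as follows. TLI/ATS against untreated had 2 in the reported fit, 0 without the filter, 4 with DESeq2 (Mertk and Timd4 added) and 5 with the replicate block (Mertk 3.90, Timd4 2.59 and Gas6 3.73 added, edgeR adjusted p = 2.64e-05, 1.19e-05 and 0.0245). Spleen cKO had 0, and 2 without the filter and with DESeq2. The interaction had 1, and 2 without the filter and 0 with the replicate block (Mfge8 -0.89, edgeR adjusted p = 0.0593). In fits of 6 libraries, lymph node against spleen had 2 in controls in place of 4 and 4 in cKO in place of 2. The share of all genes past the threshold in those tissue fits is not given, so these counts are not read as particular to the 10 genes. EpoR+ against EpoR- stayed between 6 and 7.

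Sign changes were at values near 0 or at few counts. Mfge8 in EpoR+ cells was -0.01 with RLE scaling and with DESeq2. With the replicate block, Gas6 and Pros1 were 0.35 and 1.14 in spleen cKO and -0.37 and -0.11 in the interaction, and Gas6 was -0.02 in lymph node cKO.

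Leaving out each library gave 0 to 1 members past the threshold for spleen cKO, lymph node cKO and the interaction. Over all genes, 31 to 379, 51 to 72 and 29 to 222 passed in these fits. Between tissues it gave 2 to 5 members in controls and 2 to 3 in cKO, beside 5877 to 7014 and 3856 to 4496 of all genes. For TLI/ATS and EpoR+ cells such calls are not read, because 1 library was left in a group. The sign of some members changed between fits with a library left out. In spleen cKO, Axl ran from -0.04 to 0.29, Timd4 from -1.03 to 2.05, Gas6 from -1.49 to 6.60, Pros1 from -0.95 to 4.51 and Havcr1 from -3.00 to 3.8. In the interaction, Timd4 ran from -2.74 to 0.34, Pros1 from -2.88 to 6.07, Havcr1 from -1.47 to 6.58 and Gas6 from -6.08 to 2.03. Elsewhere Pros1 ran from -0.11 to 0.83 for TLI/ATS and from -4.17 to 4.80 between tissues in controls, Havcr1 from -2.98 to 5.10 there, Mfge8 from -0.21 to 0.23 in EpoR+ cells and Gas6 from -0.32 to 1.12 in lymph node cKO.

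Over all genes, 465 passed for TLI/ATS, 390 without the filter, 1414 with DESeq2 and 1264 with the replicate block. For EpoR+ cells 2606 passed, 3236 without the filter and 5347 with the replicate block (3077 higher, 2270 lower). In spleen cKO 106 passed (436 without the filter, 546 with DESeq2, 40 with the replicate block, 31 to 379 with a library left out), in lymph node cKO 79 (170, 181, 44 in the fit of 6 libraries, 51 to 72) and in the interaction 55 (364, 420, 34 with the block, 29 to 222). The highest counts in spleen cKO and the interaction came without spleen control replicate 3. Counts fell by over 1.5 times without any spleen cKO replicate in spleen, without lymph node control or cKO replicate 1 in lymph node, and without those 2 or spleen cKO replicate 1 or 2 in the interaction. The median log2 fold change of all genes moved past 0.1 only for lymph node against spleen controls without the filter (-0.11). Same-numbered libraries deviated together with r = 0.424 in the EpoR+ and EpoR- table, r = -0.0245 in the first and at most 0.0411 in the third. With 2 libraries per group the deviations from the group mean mirror each other, so r is 1 value in each of the first 2 tables. In the third, 5 of 12 libraries were closest to their own number. The labels name no pairing, so the numbers were not taken as pairs. Below about 0.113 CPM, the highest floor of 3 counts, no difference can be seen.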
